A study of Rattus norvegicus with 90 samples.

Results

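The liver and the heart of vehicle-treated rats were compared, with no thioacetamide in either organ. The comparison rests on 19 of the 90 RNA-seq libraries of the study, 9 from liver and 10 from heart, and on the transcripts with Ensembl identifiers among the quantified targets. Libraries were chosen from the sample labels alone: the dose had to be vehicle, the tissue liver or heart, and both times after dosing were pooled. Of the 10 vehicle libraries of the liver, MS-1 was left out because its estimated counts were a near copy of those of MS-9, a library from a treated rat. Between these 2 libraries, 99.96% of transcripts lay within 1 count of each other, against at most 3.69% for any library used here and any other library.

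The study exposed rats to vehicle or to 2 doses of thioacetamide, a liver toxicant, and took liver, kidney, and heart 8 or 24 h later. Every rat was a male Sprague-Dawley animal, 10 weeks of age at purchase, with a catheter in the jugular vein, and each received an intraperitoneal injection. The vehicle was saline, at 3 ml/kg. In the 8 h group, 5 livers and 5 hearts were used, and in the 24 h group 4 livers and 5 hearts. All rats were killed at the same hour of the afternoon after food had been withheld for 8 h, so time after saline does not separate fed from unfed animals. The labels give no rat for a library. The methods state 5 rats per group and several organs from each rat, so livers and hearts may come from the same animals, but the sources used here do not say which organ belongs with which. Libraries within a group were treated as separate rats on the word of the methods.

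The liver makes most of the proteins of blood plasma, stores and releases glucose, turns ammonia into urea, makes bile acids, and breaks down drugs and toxicants. Its bulk is hepatocytes, with endothelial cells, Kupffer cells, stellate cells, and bile duct cells between them. The heart is a pump, and its mass is mostly cardiac muscle cells packed with contractile filaments and with mitochondria that burn fatty acids. Fibroblasts, endothelial cells, and smooth muscle cells lie between those muscle cells and along the vessels, and the authors powdered whole hearts before RNA was extracted because the organ is not uniform. In bulk tissue, fewer cells of a type and less RNA per cell cannot be told apart.

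The files name transcripts by identifier and do not pair them with genes. No roles can therefore be given for single transcripts, no lists of hepatocyte, cardiac, or other cell type genes were analysed here, and the tissue labels were not checked against marker genes. The labels were instead set against the data as a whole. In 19 of 19 libraries, the rank correlation across transcripts was higher with the mean of the other libraries of its own labelled organ (0.908 to 0.937) than with the mean of either other organ (at most 0.837).

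The libraries held between 16849390 and 32444050 estimated counts in total, and 21108 to 24241 transcripts had a count above 0. Between 4.08 and 25.0% of the counts fell on genomic intervals that are listed beside the transcripts, and these were left out. Some libraries stood apart. In liver MS-16, MS-19, and MS-21, transcripts under 200 bases held 29.5 to 30.6% of all TPM (an abundance corrected for transcript length and scaled to the same sum in every library), against 5.67 to 12% in the other 6 livers. In heart, MS-89 and MS-64 had the largest share of counts on intervals, 20.3 and 16.8%. For some results that rest on these libraries, values without them are also given. The shares of TPM held by the called transcripts and the lists of abundant transcripts are given only with them.

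The organs differed in most of the transcripts tested. Of 40071 transcripts, 19650 passed the filter on low counts, and 11053 (56.2%) were called different by edgeR's quasi-likelihood test with the Benjamini-Hochberg adjusted p-value limited to 0.01 and the fold change required to reach 0.60 on the natural-log scale, or 0.866 on the log2 scale. Of these, 5066 (25.8% of those tested) were higher in liver and 5987 (30.5%) were higher in heart. The median log2 fold change, liver minus heart, was 2.21 for the transcripts higher in liver and -2.54 for those higher in heart. Over all transcripts tested the median was -0.07 and the median absolute log2 fold change was 1.21.

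The balance between the organs depended on how libraries were scaled. TMM scaling, which centres the bulk of the transcripts, was used for all fold changes here, and its factors were 0.69 to 0.82 in liver and 1.20 to 1.34 in heart. With scaling to library totals alone, the median log2 fold change over all transcripts moved by -0.74, and 12123 transcripts were called, 3155 higher in liver and 8968 higher in heart. With RLE size factors the split was 4913 to 6166. With limma on log2(TPM + 1), without TMM scaling, it was 2658 to 5945. The number of transcripts called higher in each organ is therefore relative to the centre of the tested transcripts.

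Many of the differences were large. At least 2-fold differences were found for 4664 transcripts higher in liver (23.7%) and 5644 higher in heart (28.7%). At 10-fold or more there were 1712 (8.71%) and 2203 (11.2%). At 100-fold or more, 810 transcripts were higher in liver (4.12%) and 644 higher in heart (3.28%). These counts depended on the scaling and the unit. With library totals they were 2975 and 8440 at 2-fold, 1406 and 2980 at 10-fold, and 715 and 840 at 100-fold, so the organ with more transcripts at 100-fold changed. Limma on log2(TPM + 1) shrinks the folds of low transcripts and used TPM as deposited, without TMM scaling. There the counts were 756 and 702 at 10-fold and 261 and 82 at 100-fold. Fitted folds of this size rest partly on the prior count. Of the 810 transcripts, 146 had 0 counts in every heart library, and set against a floor of 3 counts over all heart libraries 110 of those stayed at 100-fold or more. Of the 644, 222 had 0 counts in every liver library, and 133 of those stayed at 100-fold or more against the same floor in liver. The difference between the organs in these counts was not tested.

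**Figure D1:**
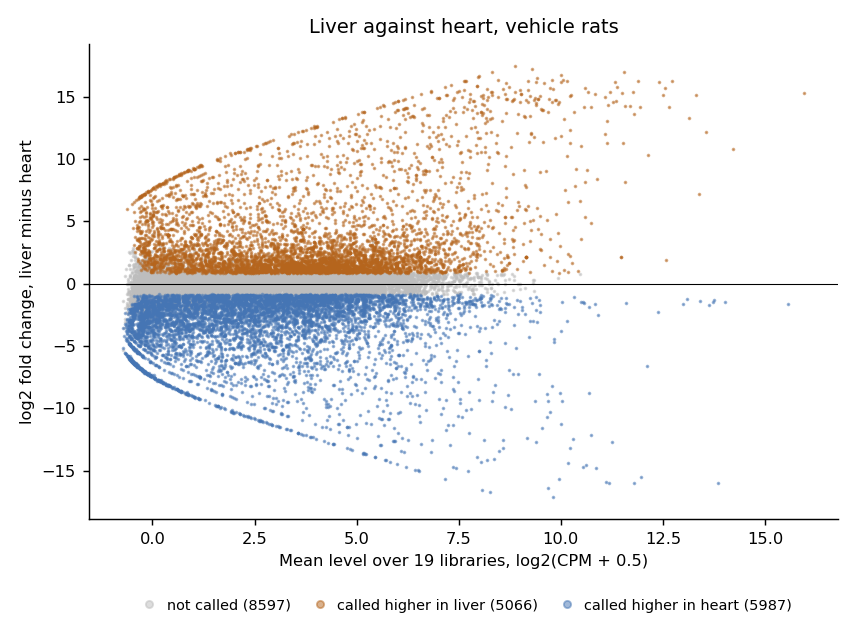
Log2 fold change (liver minus heart) against mean level, log2(CPM + 0.5), for the 19650 transcripts tested in 19 vehicle libraries. Points above the line at 0 are higher in liver. The 5066 transcripts called higher in liver and the 5987 called higher in heart are coloured, and the curved outer edges are transcripts with few or no counts in 1 organ.

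Separation of the libraries was counted in the same data that made the calls, so it restates them and is no further support. On the TMM-scaled CPM scale, every liver library lay above every heart library for 4278 of the 5066 transcripts called higher in liver (84.4%). Every heart library lay above every liver library for 4863 of the 5987 called higher in heart (81.2%). Among the 8597 transcripts not called, 852 had all livers above all hearts and 605 the reverse, so a part of the uncalled transcripts also separated the organs at smaller folds or lower counts. Without the limit on fold change, 14622 transcripts passed the adjusted p-value alone, 7119 higher in liver and 7503 higher in heart.

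Transcripts called higher in heart were longer. Their median length was 2401 bases, against 1901 bases for those called higher in liver and 2134 bases for those not called. When tested transcripts were divided by length into 4 classes of near-equal size, 30.6% of the shortest class (up to 1377 bases) were called higher in liver and 25.7% higher in heart. In the longest class (3353 bases or more) the order was reversed, with 17.7% higher in liver and 37.7% higher in heart. The median log2 fold change went from 0.22 in the shortest class through 0.10 and -0.12 to -0.45 in the longest. Under library totals the medians of all 4 classes would move down together by the shift given above, so the statement is about the order of the classes and not about their sign. These shares describe the transcripts and carry no test, since transcripts are not replicates.

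The transcript pool of the heart was more concentrated in a few transcripts than that of the liver. The 10 most abundant transcripts of a heart library held 29.9% of its TPM at the lowest, 36.8% at the median, and 39.4% at the highest. In liver the same share was 19.8% at the lowest, 21.3% at the median, and 29.5% at the highest, so the highest liver libraries lay just under the lowest heart library and the groups did not overlap. The means were 35.6% ± 3.65 (SD, n = 10) in heart and 23.2% ± 3.91 (SD, n = 9) in liver, a difference of -12.3 percentage points (liver minus heart; two-sided exact permutation test, p = 2.17e-05, adjusted p = 4.33e-05 over 4 single values). That p is the smallest that 9 libraries against 10 can give. The 3 livers that came closest to the hearts were MS-16, MS-19, and MS-21. Without them the difference was -14.9 points, and among transcripts of at least 200 bases it was -15.8 points, with 23% in liver and 38.8% in heart. Within 8 h the difference was -14.7 points and within 24 h -9.62 points. On estimated counts in place of TPM it was much smaller, -3.72 points, with 25.4% in liver and 29.1% in heart (two-sided exact permutation test, adjusted p = 0.000289). The direction thus held in both units, and the size did not.

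Further down the ranking the gap between the organs was smaller. The 100 most abundant transcripts held 64.5% ± 1.99 (SD, n = 10) of TPM in heart and 59.7% ± 6.11 (SD, n = 9) in liver, a difference of -4.88 points (two-sided exact permutation test, p = 0.0309, adjusted p = 0.0412). This difference was not stable, and it was larger in 2 settings chosen after the data were seen. Among transcripts of at least 200 bases, liver held 56.3% (53.1 to 59.9%) and heart 64.4% (62.5 to 67.5%), without overlap. With MS-16, MS-19, and MS-21 left out and every transcript included, the other 6 livers held 53.5 to 58.2%, against 62.7 to 67.7% in heart. Over all transcripts, the difference missed the threshold of 0.05 within 8 h (-7.01 points, adjusted p = 0.0741) and within 24 h (-2.35 points, adjusted p = 0.508, both by the same exact test). It also missed it without any 1 of liver MS-10, MS-13, MS-28, MS-29, MS-4, or MS-20, or of heart MS-76, MS-88, MS-89, or MS-64, with differences between -4.11 and -4.87 points. On estimated counts in place of TPM, which weigh long transcripts more, it turned to 2.86 points higher in liver. In median, 25.5 transcripts (21 to 34) held 50% of the TPM of a heart library, and 58 (32 to 79) did in liver. The ranges overlapped: liver MS-16, MS-19, and MS-21 needed 34, 33, and 32, and the other 6 livers 57 to 79.

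**Figure D2:**
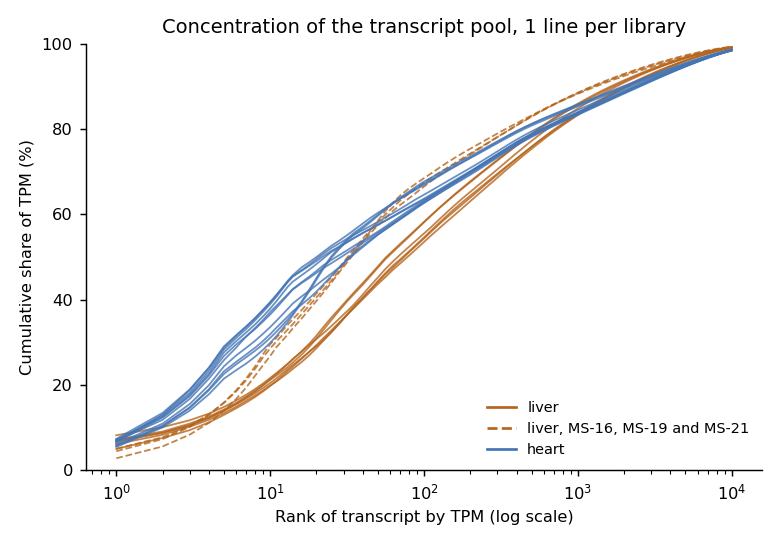
Cumulative share of TPM (%) against the rank of a transcript by TPM on a log axis, with 1 line for each of the 19 vehicle libraries. At rank 10 all hearts lie above all livers. At rank 100 the 6 livers with solid lines are below every heart, whereas liver MS-16, MS-19, and MS-21 (broken lines) lie among or above the hearts, which they reach between ranks 25 and 40.

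The heart libraries also held more different transcripts. The number of transcripts at 1 TPM or more was 14917 at the lowest, 15319.5 at the median, and 15633 at the highest in heart. In liver it was 12403, 12923, and 13656, so every heart library lay above every liver library. The means were 15313 ± 254 (SD, n = 10) and 13091 ± 431 (SD, n = 9), a difference of -2223 (two-sided exact permutation test, p = 2.17e-05, adjusted p = 4.33e-05). The difference was also present at equal depth: after every library was thinned to 13429953 counts, 22031 transcripts had a count in heart and 20277 in liver, in means. At 10 TPM or more the means were 5714 and 4857, and at 0.1 TPM or more 20935 and 18971. Thus, the heart pool was at once more concentrated at its top and broader at its base.

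The mean length of the molecules in the pool, weighted by TPM, did not pass the test. It was 1208 ± 163 bases in liver (SD, n = 9) and 1137 ± 53.4 bases in heart (SD, n = 10), with p = 0.209 by the two-sided exact permutation test. The liver libraries spread over a wider range, from 989 to 1399 bases, and the lowest values came with the largest share of very short targets. Among transcripts of at least 200 bases, the lowest liver library had 1377 bases, the median 1434, and the highest 1487. The corresponding heart values were 1193, 1254, and 1276 bases, and the groups did not overlap. The difference was then 180.0 bases, longer in liver (two-sided exact permutation test, p = 2.17e-05). Without MS-16, MS-19, and MS-21, and with every transcript included, it was 175 bases. On estimated counts, which rise with length, the weighted length was 263 bases shorter in liver, so the direction depends on the unit. The length limit and the omission of libraries were chosen after the data were seen.

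**Figure D3:**
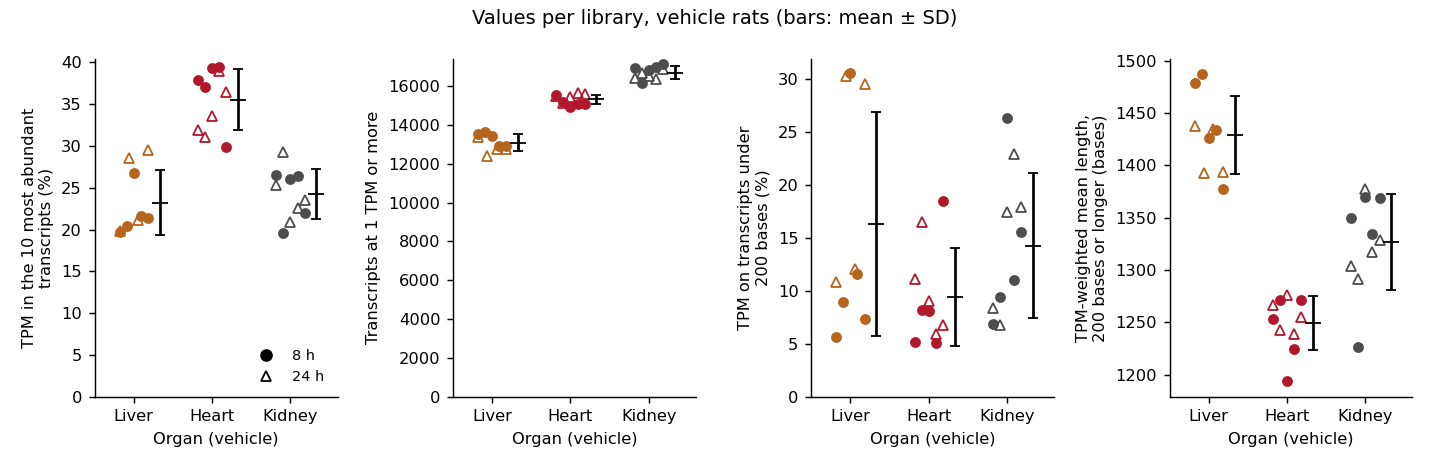
Values of each vehicle library (filled circles 8 h, open triangles 24 h) with the mean and SD at the right of each organ: share of TPM in the 10 most abundant transcripts, number of transcripts at 1 TPM or more, share of TPM on transcripts under 200 bases, and TPM-weighted mean length of transcripts of 200 bases or longer. Liver and heart do not overlap in any panel but that of short transcripts, where 3 livers stand near 30%. Kidney libraries are shown for comparison, and their mean length lies between those of liver and heart.

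The very short targets behind the 3 unusual livers include 8 targets of 49 bases, which had the same estimated count in every library and thus cannot be told apart by the reads. Each held 2717 TPM at the lowest, 9312 at the median, and 28507 at the highest in liver, and 827, 2962, and 16095 in heart. The 2 ranges overlapped widely. The log2 fold change was 2.17 (SE 0.61, edgeR adjusted p = 0.00295). Without MS-16, MS-19, and MS-21 it was 0.96, with an adjusted p of 0.135, so their call rests on those libraries. Such targets gave few counts, 449 to 6801 per library in liver, and TPM divides by a short effective length. Among all transcripts tested, 188 in 81 sets had counts identical to those of another transcript in every library, and these are also uncertain as single transcripts.

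In liver, the most abundant transcript was ENSRNOT00000003921, of 2069 bases. It was in first place in 8 of 9 liver libraries. In liver it stood at 21295 TPM at the lowest, 61371 TPM at the median, and 81795 TPM at the highest, with a mean of 5.73% of all TPM. In the hearts the values were 0.161, 0.961, and 10.1 TPM. No heart library came near any liver library: the log2 fold change was 15.31 (SE 0.97, edgeR adjusted p = 1.17e-11). The lowest liver value was that of MS-16, the only liver in which another target, one of 49 bases, came first. In kidney the same transcript ranged from 1.01 to 123 TPM with a median of 11.7, above the heart median but far under every liver.

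The liver transcript with the largest fold change among those at 100 TPM or more in every liver, and counted in enough hearts to be compared, was ENSRNOT00000013896, of 1670 bases. It stood at 1787 TPM at the lowest, 4854 TPM at the median, and 5804 TPM at the highest in liver. In heart it was at 0 in 4 of 10 libraries, and the highest value was 0.269 TPM, from at most 9 counts in a library. The groups were thus separated by several orders of magnitude, with a log2 fold change of 16.21 (SE 0.51, edgeR adjusted p = 1.22e-16). The heart level rests on 28.3 estimated counts in all. Kidney held 0.0299 to 6.10 TPM.

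The most abundant heart transcript behaved differently. ENSRNOT00000050156, of 1545 bases, was in first place in 10 of 10 heart libraries, at 54420 TPM at the lowest, 66084 TPM at the median, and 73346 TPM at the highest, with a mean of 6.46% of all TPM. It was also abundant in liver, at 8827, 15471, and 16869 TPM. The organs did not overlap, but the difference was small beside those above, with a log2 fold change of -1.61 (SE 0.13, edgeR adjusted p = 3.26e-10). On the TPM scale the ratio of means was 4.70 in favour of heart, larger than the TMM-scaled fold. Kidney lay between the organs, from 24855 to 45559 TPM.

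The heart transcript with the largest fold change under the same rule was ENSRNOT00000028458, of 902 bases. In heart it stood at 5240 TPM at the lowest, 5902 TPM at the median, and 7122 TPM at the highest. In liver it was at 0 in 4 of 9 libraries, with a median of 0.0481 TPM and a highest value of 0.889 TPM in MS-4. Heart and liver were far apart, with a log2 fold change of -14.78 (SE 0.42, edgeR adjusted p = 2.11e-17). The liver level rests on 19 counts in all, of which 11 were in MS-4, and without that library the log2 fold change was -15.85. Kidney held 1.27 to 6.73 TPM, more than every liver library. For none of the 4 transcripts did the organ contrast pass a test of a difference between 8 and 24 h (smallest edgeR adjusted p = 0.692), and each kept its direction and its call in 37 of 37 alternative analyses. Over these, the size of the log2 fold change ran from 11.84 to 16.60 for ENSRNOT00000013896 and from -15.85 to -12.37 for ENSRNOT00000028458, with the smallest sizes on log2(TPM + 1). It ran from 14.30 to 16.41 for ENSRNOT00000003921 and from -2.36 to -1.55 for ENSRNOT00000050156.

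**Figure D4:**
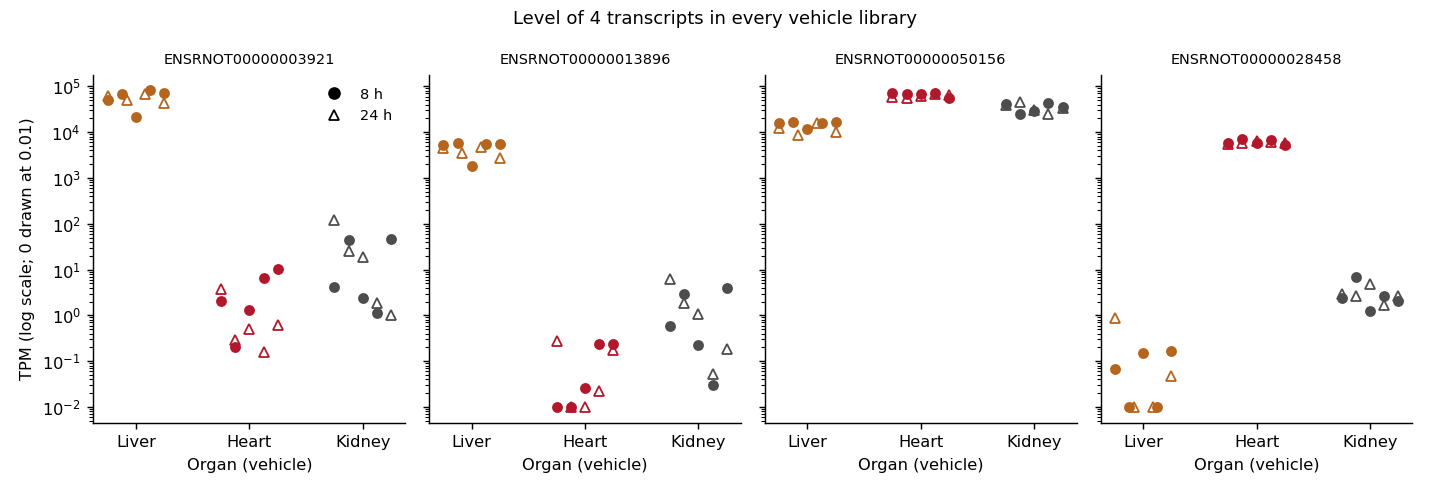
TPM on a log axis of the 4 transcripts named in the text in each vehicle library of liver, heart, and kidney (filled circles 8 h, open triangles 24 h), with 0 drawn at 0.01. The most abundant heart transcript, ENSRNOT00000050156, is at 8827 TPM or more in every library of every organ, whereas the other 3 exceed 1000 TPM in the libraries of 1 organ, with at most 123 TPM in any library of the others.

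A similar contrast was seen among the 10 leading transcripts of each organ. Among transcripts of at least 200 bases, 8 of the 10 most abundant in liver were called higher in liver and 2 higher in heart. Of these 10, 7 were at least 100-fold higher in liver than in heart, and 3 were at 1000 TPM or more in heart as well. With no limit on length, when 4 targets of 49 bases enter the list, the last 2 counts were 6 and 4. All 10 were then called higher in liver. Of the 10 most abundant in heart, 1 was at least 100-fold higher in heart, and 9 were at 1000 TPM or more in liver as well as in kidney. All 10 of the latter were called higher in heart. Among the 100 most abundant of each organ with no limit on length, 38 transcripts were on both lists. In the liver list, 85 were called higher in liver, 13 higher in heart, and 52 were at least 100-fold higher in liver. In the heart list, 69 were called higher in heart, 23 higher in liver, and 25 were at least 100-fold higher in heart. All of these lists were picked by abundance in their own organ, which favours calls in that direction. Among all tested transcripts with a mean of 1000 TPM or more in the higher organ, 95.7% were called. With a mean of 100 to 1000 TPM, 77.1% were. The contrast in shared abundance was not seen over the lists of 100: 39 of the liver list were at 1000 TPM or more in heart, and 41 of the heart list were at 1000 TPM or more in liver. From 200 bases, 26 transcripts were on both lists of 100. The liver list then held 84 called higher in liver, 13 higher in heart, and 62 at 100-fold or more. The heart list held 77 called higher in heart, 11 higher in liver, and 28 at 100-fold or more.

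The called transcripts together filled most of each pool. Those called higher in liver held 76.4% ± 4.01 (SD, n = 9) of the TPM of liver and 12.1% ± 6.20 (SD, n = 10) of that of heart. Those called higher in heart held 70.9% ± 5.42 (SD, n = 10) of the TPM of heart and 11.4% ± 2.14 (SD, n = 9) of that of liver. The 8597 transcripts not called held 11.7% in liver and 16.5% in heart. The kidney took no part in the calls. There, those higher in liver held 35.3% ± 7.10 of TPM and those higher in heart 37% ± 5.18 (SD, n = 10). The set higher in liver includes the 8 targets of 49 bases, whose call rests on MS-16, MS-19, and MS-21. In means, these targets held 11% of TPM in liver, 4.3% in heart, and 8.54% in kidney. The closeness of the 2 kidney shares therefore depends on counting them. The shares of the called sets restate the contrast that made the calls and are given as a description.

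Some transcripts were close to all or nothing. At 10 TPM or more in every liver library and below 0.1 TPM in every heart library there were 148 transcripts, with a median level of 107 TPM in liver, and 42 of them had 0 counts in every heart. In the opposite direction there were 120, with a median of 35.9 TPM in heart, of which 39 had 0 counts in every liver. The kidney divided these sets. Of the 148 liver transcripts, 11 were at 10 TPM or more in every kidney library, 19 were below 0.1 TPM in every kidney, and 118 lay between or varied. Of the 120 heart transcripts, none was at 10 TPM or more in every kidney, 29 were below 0.1 TPM in every kidney, and 91 lay between or varied. Whether the organs differ in this sharing was not tested. The sizes of the sets depend on the limits, and with less than 1 TPM allowed in the other organ they were 391 and 349.

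A wider set gave the position of the kidney on a log scale. Among transcripts called with at least a 10-fold difference and at 10 TPM or more in the higher organ, 999 were higher in liver and 739 higher in heart. For 452 of the 999 (45.2%) the kidney level was nearer to liver, and for 547 (54.8%) nearer to heart. For the 739 heart transcripts, the kidney was nearer to liver in 507 (68.6%) and nearer to heart in 232 (31.4%). The kidney level exceeded that of the higher organ for 170 of the liver transcripts and 48 of the heart transcripts, so a transcript that separates liver from heart is not thereby particular to either.

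Low levels of each organ's leading transcripts were present in the other. The 50 most abundant transcripts among those at least 100-fold higher in liver summed to 30.9% of the TPM of liver. In the 10 hearts they summed to 228 TPM at the lowest, 303 TPM at the median, and 369 TPM at the highest. The 50 corresponding heart transcripts summed to 11.8% of the TPM of heart, and in the 9 livers to 27.1, 33.1, and 62.2 TPM. The highest of the liver values was that of MS-4, the library that also had the highest level of ENSRNOT00000028458. In kidney the sums were higher, 4047 to 6770 TPM for the liver set and 1587 to 2304 TPM for the heart set. The source of these low sums was not tested.

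Among transcripts at 100 TPM or more in both organs, a smaller share was called than among all transcripts that reached such levels in the higher organ. At 1000 TPM or more the shares were close. There were 270 transcripts at 100 TPM or more in every liver and every heart library, and of these 86 were called higher in liver, 55 higher in heart, and 129 were not called. The 86 include the 8 targets of 49 bases, whose call rests on MS-16, MS-19, and MS-21. The share called was 52.2%, near the 56.2% of all transcripts tested. It was below the 77.1% called among transcripts with a mean of 100 to 1000 TPM in the higher organ. For 21 of the 270, the absolute log2 fold change was under 0.2. A difference of at least 10-fold was seen in 6. At 1000 TPM or more in every library there were 15 transcripts, of which 12 were called higher in heart, 2 higher in liver, and 1 was not called. The share called was 93.3% there, close to the 95.7% among transcripts with a mean of 1000 TPM or more in the higher organ. These directions are relative to TMM scaling.

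Liver libraries varied more among themselves than heart libraries. Over 4697 transcripts at 10 CPM or more in every library of both organs, the median SD of log2 CPM within an organ and time was 0.198 in liver and 0.105 in heart. The SD was larger in liver for 4301 of the 4697 transcripts (91.6%). Without MS-16, MS-19, and MS-21 the median SD in liver was 0.170, and leaving out any 1 library gave 0.175 to 0.204 in liver and 0.101 to 0.107 in heart. No test was made of this difference, since transcripts of 1 library share its quality. The methods name powdering before RNA extraction for heart and kidney but not for liver. Variation between animals and sample handling cannot be told apart here.

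The 2 times after saline gave separate sets of rats in which to look for the same organ differences. At 8 h, with 5 livers and 5 hearts, 9496 of 17823 transcripts were called (53.3%). At 24 h, with 4 livers and 5 hearts, 9887 of 18328 were called (53.9%). Among the 17598 tested at both times, 9407 were called at 8 h and 9579 at 24 h, and 8596 were called at both. These were 91.4% of the 8 h calls and 89.7% of the 24 h calls, and all 8596 had the same direction. The median absolute difference between the log2 fold changes of the 2 times was 0.22, against a median absolute log2 fold change of 1.14 at 8 h and 1.19 at 24 h. For 5% of transcripts the difference was over 1.45. Across transcripts, which are not independent, Pearson's r between the fold changes was 0.979.

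**Figure D5:**
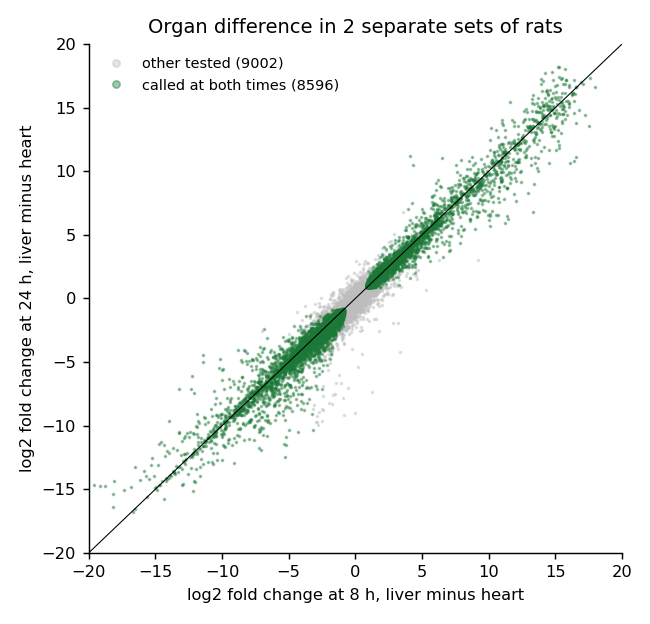
Log2 fold change (liver minus heart) at 24 h against that at 8 h for 17598 transcripts tested at both times, from libraries of separate groups of rats. The 8596 transcripts called at both times are coloured and lie along the line of equal values, below 0 at both times or above 0 at both.

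No transcript passed the test for an organ difference that changed with time. The interaction of organ and time was called for 0 of 19650 transcripts (0%) by edgeR with the adjusted p-value limited to 0.01, with a smallest adjusted p of 0.0351 and 1514 transcripts at an unadjusted p under 0.05. DESeq2 called 33. Without liver MS-29, edgeR called 3, and without any other single library it called 0. With 4 or 5 libraries in each group, small interactions may have been missed.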

How the data were processed

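Reads were 75-bp pairs from poly-A-enriched, stranded libraries. The authors pseudo-aligned them with Kallisto (version 0.42.2 per the submitters' processing notes) to the Ensembl Rnor_6.0 transcriptome, and whether strand was used is not given in the sources used here. They deposited, for each of 65166 targets, an estimated count, which need not be whole, and its TPM. Of these targets, 25095 are genomic intervals and were left out, and TPM was rescaled to sum to the same total over the 40071 transcripts. The limma alternatives used TPM as deposited. Total estimated counts per library are given above.

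Estimated counts, rounded to the nearest integer, were fitted with edgeR 4.0.16 in R 4.3.3 (default filter on low counts, TMM, quasi-likelihood, time as a term beside organ). Both limits on calls are those of the study, which compared treated with vehicle samples within each organ and set the second on its own effect size. Single values were tested by exact permutation in scipy 1.17.1. Alternatives used DESeq2 1.42.0, limma 3.58.1 with log2(TPM + 1) or a pseudocount of 0.1, other scalings, filters, units and thresholds, a replicate block, and each library left out. The fits were also run on simulated counts in which few transcripts changed. That run cannot judge the calls or the scaling where most transcripts differ, as they do here. Tables were made in Python 3.11.15 with pandas 2.3.3, and plots with matplotlib 3.10.9.

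Transcripts are named in each direction as the called one with the highest mean TPM, and the called one with the largest fold among those at 100 TPM or more in every library of the higher organ and above 0 in at least 50% of the other. Gene lists and sums per gene, for which names are required, were not analysed here. The comparison, the lists, and the groups were chosen with earlier results of these data known.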

Additional observations from a re-analysis of the deposited data

Results flagged for a closer look

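Of 36 sets of 4 or 5 libraries examined, 9 held a library whose distance from the nearest other was large beside the range of its set, where about 1 in 20 would by chance, and the sets share libraries. Liver MS-16 at 8 h accounts for 4 of them. Its 10 most abundant transcripts held 26.8% of TPM (19.8 to 21.6% in the other 4), its share of counts on intervals was 23.6% (4.08 to 8.76%), and its levels of ENSRNOT00000013896 (1787 TPM against 5224 to 5804) and ENSRNOT00000050156 (11800 TPM against 15471 to 16869) were the lowest. In heart at 8 h, MS-89 had the lowest share in the 10 most abundant transcripts, 29.9% (37.1 to 39.4% in the others), and the highest share of counts on intervals, 20.3% (5.66 to 9.45%). In heart at 24 h, MS-64 held 67.7% of TPM in its 100 most abundant transcripts (62.7 to 63.7% in the others), and MS-61 had 3.85 TPM of the liver transcript ENSRNOT00000003921 (0.161 to 0.615 TPM). In liver at 24 h, MS-4 had 0.889 TPM of the heart transcript ENSRNOT00000028458 (0 to 0.0481 TPM).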

How the results depend on the processing

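The total of 11053 calls stayed within 1.5 times under every alternative run, from 8603 (limma on log2(TPM + 1)) to 14622 (no limit on the fold change), and from 10925 to 11128 with 1 library left out. Calls higher in liver, and those of at least 2-fold, fell to 3155 and 2975 with library totals, to 2658 and 2412 with limma on log2(TPM + 1), and to 3254 and 3053 with a pseudocount of 0.1. The fit on log2(TPM + 1) shrinks low transcripts and had no TMM scaling. Its counts higher in liver and in heart were 756 and 702 at 10-fold and 261 and 82 at 100-fold. With a pseudocount of 0.1, also without TMM scaling, they were 493 and 321 at 100-fold. The interaction gave 33 calls by DESeq2 and 0 to 3 with 1 library left out. The replicate block, a paired fit in which heart numbers are liver numbers plus 60, gave 10778 calls (4921 and 5857). No label or method says what this offset marks, and whether it pairs organs of 1 rat was not settled: over 9 pairs the correlation of deviations ran from -0.21 to 0.366, 5 were above 0.1, and 3 libraries matched their own partner best. With MS-1 kept, 10804 were called, 4472 and 6332.

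The share of the 100 most abundant transcripts gave 2.86 points on estimated counts, -4.60 points with intervals included, -7.01 at 8 h, -2.35 at 24 h, and -5.98 to -4.11 with 1 library left out. From 200 bases the gap was larger, with means of 56.3% in liver and 64.4% in heart. The weighted length gave -263 bases on estimated counts, -1.44 at 24 h, 97.5 with intervals, 175 without MS-16, MS-19, and MS-21, and 180.0 from 200 bases. The restricted sets of 148 and 120 became 391 and 349 at under 1 TPM in the other organ, and 73 and 36 at 50 TPM or more in the higher one. The liver SD became 0.170 without MS-16, MS-19, and MS-21. The causes were not tested. Fits without those 3 libraries, without 5, from 200 bases, or with the interval share as a covariate were chosen after seeing the data and gave 11172, 11071, 10946, and 11134 calls. Sums per gene were not run.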
